A study of Mus musculus with 3 samples.

Results

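The genes described here are 9 that mark T and B lymphocytes: the T cell receptor partners Cd3e, Cd3g and Cd3d, the coreceptor genes Cd4, Cd8a and Cd8b1, and the B cell genes Ighm, Cd79a and Ms4a1. They were chosen by name, with no measured value in the rule but with earlier results of these data known. Each was found as 1 row among the 25206 genes of the table. The study asked how cancer cachexia, the muscle wasting that accompanies a tumour, changes gene expression in mouse muscle and how much of this needs the transcription factor FoxP1. RNA came from the tibialis anterior, a muscle of the lower leg, of male CD2F1 mice (strain CD2 in the labels) and was hybridized to Mouse Gene 2.0 ST arrays. The muscles had received 1e+11 genomes of an adeno-associated vector, serotype AAV9, at 10 weeks of age, and 2 weeks later the mice were inoculated, with muscles taken 26 days after that.

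The C26 FoxP1-shRNA group received 500000 colon 26 adenocarcinoma cells in each flank, and its vector carried a short hairpin RNA against FoxP1 with mCherry as a marker. The C26 scrambled-shRNA group received the same tumour cells, and its vector carried a scrambled hairpin with GFP. The Sham group received phosphate-buffered saline in place of tumour cells and carried the scrambled hairpin and GFP as well. Every muscle on the arrays was therefore transduced, and the change of hairpin cannot be told apart from the change of fluorescent marker. Each group was 1 array, and that array held an equal pool of RNA from 3 animals, so no value has an error, no test between groups was possible, and the precision of all that follows is limited by there being only 3 arrays.

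T cells recognise antigen through a receptor whose antigen-binding chains cannot signal alone and depend on the CD3 chains and the zeta chain beside them. CD4 and CD8 bind MHC class II and class I on the presenting cell and divide T cells into helper and cytotoxic classes, while B cells carry membrane immunoglobulin held to the signalling chains CD79A and CD79B. Healthy muscle has few lymphocytes, which lie between the fibres and in its vessels, whereas macrophages are its more usual resident leucocytes.

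Values are log2 expression values from Robust Multiarray Average, a method that corrects background, gives the arrays like distributions and summarises the probes of a gene to 1 value. The median over all genes was 3.99 on the C26 FoxP1-shRNA array, 4.05 on the C26 scrambled-shRNA array and 4.06 on the Sham array. Olfactory receptors, 1082 genes that muscle is not known to use at a high level, had a 95th percentile of 3.71, 3.86 and 3.74 in the same order of arrays, and the highest of these, 3.86, is called the olfactory level below. A value under it was read as not distinguished from the brightness of genes that are largely silent. Foxp1, the target of the hairpin, was at 6.52, 7.31 and 6.41 on the same arrays, and the 11 skeletal muscle genes examined, such as Acta1 and Ckm, had medians of 11.68, 11.60 and 11.95.

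All 9 lymphocyte genes had their highest value on the Sham array. Both tumour arrays were lower than Sham for 9 of 9 members, a pattern shown by 34.6% of all genes. C26 FoxP1-shRNA had the lowest value for 6 members, among which that of Cd8b1 depends on the scaling, and C26 scrambled-shRNA for the other 3. The shares of all genes lowest on each array were not counted, so this split is not read further. The members' median log2 value was 3.13 in C26 FoxP1-shRNA, 3.21 in C26 scrambled-shRNA and 5.04 in Sham. Few members stood out from the silent genes on the tumour arrays: 2 were above the olfactory level in C26 FoxP1-shRNA, 3 in C26 scrambled-shRNA and 6 in Sham. The exact share of all genes above that level was not counted, but the median over all genes exceeded it on every array, so most genes did. In RNA from whole muscle, fewer cells of a type and less RNA per cell cannot be told apart, and this holds for each lymphocyte gene below.

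**Figure D1:**
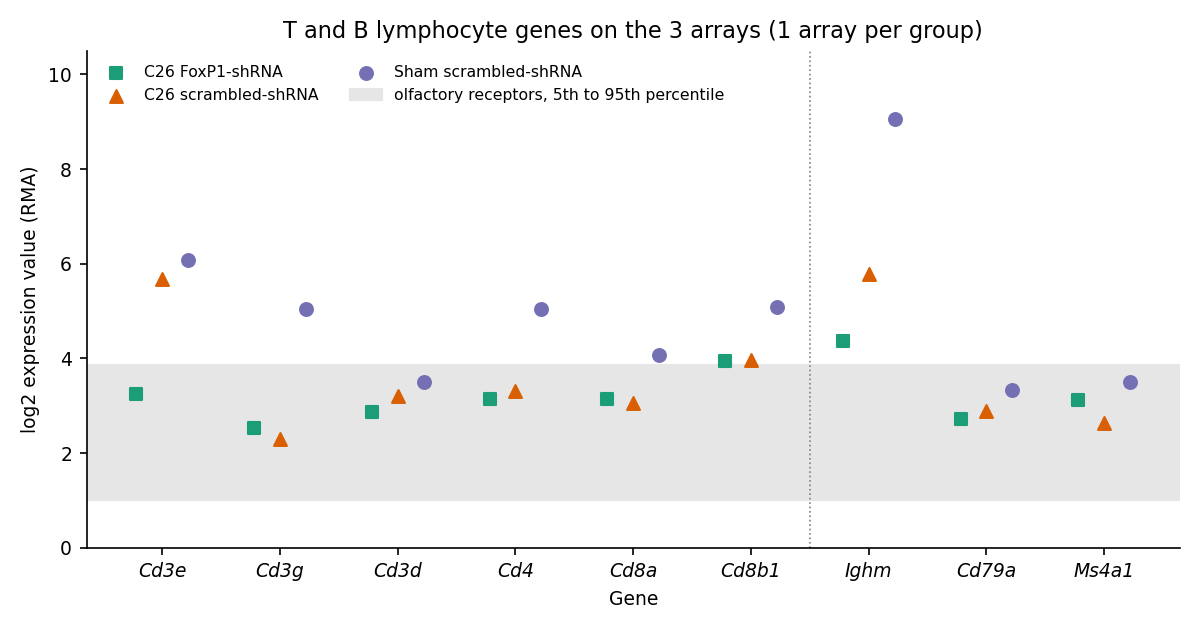
Log2 expression value of each of the 9 lymphocyte genes (x axis; T cell genes left of the dotted line, B cell genes right of it) on the 3 arrays, 1 point per array with no replicate; the grey band runs between the lowest 5th and the highest 95th percentile of the olfactory receptors. Each Sham point is the highest of its gene, Ighm spans the widest range, 4.36 to 9.05, and Cd3d, Cd79a and Ms4a1 lie inside the band on every array.

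In the comparison of C26 scrambled-shRNA with Sham, the effect of the tumour, 5 of 9 members were at or below 0.5 times their Sham value, where 4.33% of all genes were, and 0 members were at or above 2 times, where 3.34% of all genes were. The 5 were Cd3g, Cd4, Cd8a, Cd8b1 and Ighm. The members' median log2 difference was -1.0, and that of all 25206 genes was 0.032 with an SD over genes of 0.61. With every value under the olfactory level raised to it, the members' median was -0.41 and 4 of 9 members stayed at or below 0.5 times, against 3.59% of all genes, because Cd8a had little room above that level.

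Cd3e, Cd3g and Cd3d encode the epsilon, gamma and delta chains of CD3, which assemble with the T cell receptor as epsilon-gamma and epsilon-delta pairs. Cd3e was at 3.26 in C26 FoxP1-shRNA, 5.68 in C26 scrambled-shRNA and 6.09 in Sham. The C26 scrambled-shRNA muscle was thus close to Sham for this gene, at 0.755 times its value, and the FoxP1-shRNA muscle stood apart from both. Cd3g had another order, at 2.53 in C26 FoxP1-shRNA, 2.31 in C26 scrambled-shRNA and 5.04 in Sham, so that both tumour arrays lay under the olfactory level and Sham above it. Its log2 difference was -2.73 in C26 scrambled-shRNA against Sham, a fold of 6.64, or at least 2.26-fold lower when the tumour value is taken at the olfactory level. Cd3d was at 2.86, 3.21 and 3.51 in C26 FoxP1-shRNA, C26 scrambled-shRNA and Sham, all 3 under the olfactory level, and gives no order that these arrays can resolve. Cd3e and Cd3g, chains of 1 complex, thus did not share a pattern over these single arrays, and only Cd3e was bright in C26 scrambled-shRNA.

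The 3 CD3 genes are neighbours on mouse chromosome 9. Cd3g and Cd3d are read in opposite directions with start sites 1355 bp apart, and Cd3e starts 27825 bp from Cd3d. Their promoters are shown because Cd3e and Cd3g gave different patterns on the arrays, while Cd3d gave none that could be resolved. The sequences are from RefSeq on GRCm38.p6, cover 250 bases before and 50 after each start site and are written along the gene's own strand. They span chr9:45009562-45009861 on the minus strand for Cd3e, chr9:44981536-44981835 on the plus strand for Cd3d and chr9:44980382-44980681 on the minus strand for Cd3g. Capitals mark GGAA or its complement TTCC, the core bound by ETS family factors, a family that includes lymphoid regulators.
Cd3e: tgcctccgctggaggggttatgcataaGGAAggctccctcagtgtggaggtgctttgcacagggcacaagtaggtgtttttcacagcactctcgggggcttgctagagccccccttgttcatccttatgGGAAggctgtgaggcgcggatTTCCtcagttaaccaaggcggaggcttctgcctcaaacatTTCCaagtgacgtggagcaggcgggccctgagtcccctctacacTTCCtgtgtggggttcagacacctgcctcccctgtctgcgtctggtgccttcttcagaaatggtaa
Cd3d: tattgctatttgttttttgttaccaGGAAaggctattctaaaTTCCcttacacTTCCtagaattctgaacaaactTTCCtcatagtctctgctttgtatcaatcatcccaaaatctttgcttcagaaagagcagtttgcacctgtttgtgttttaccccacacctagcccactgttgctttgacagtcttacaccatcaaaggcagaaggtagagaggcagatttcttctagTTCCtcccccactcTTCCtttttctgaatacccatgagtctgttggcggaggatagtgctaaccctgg
Cd3g: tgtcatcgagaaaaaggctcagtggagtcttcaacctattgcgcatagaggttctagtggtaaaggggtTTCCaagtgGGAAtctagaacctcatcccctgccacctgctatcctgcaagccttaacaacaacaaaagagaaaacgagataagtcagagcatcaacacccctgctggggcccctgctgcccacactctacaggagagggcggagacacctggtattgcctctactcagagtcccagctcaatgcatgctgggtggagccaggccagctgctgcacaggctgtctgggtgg
The core occurs 5 times in the Cd3e window, 6 times in that of Cd3d and 2 times in that of Cd3g, both strands counted. It is also found in 96.0% of the 32851 promoters of the table, with a median of 3, so it does not set these genes apart. The E-box CANNTG occurs 2, 1 and 4 times in Cd3e, Cd3d and Cd3g and in 72.3% of all promoters. TGTGGT, a core bound by RUNX factors, and TATAAA were in none of the 3 windows, and 16.8% and 13.6% of all promoters hold them. The table also held promoters of Cd8a, with 7 of the GGAA cores and 3 E-boxes, and of Cd79a, with 4 and 2; 5 of the 9 members matched it, and those of Cd4, Cd8b1, Ighm and Ms4a1 are named only.

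The coreceptor genes had 1 pattern among them. Cd4, the coreceptor of helper T cells that some macrophages and dendritic cells also carry, was at 3.15 in C26 FoxP1-shRNA, 3.31 in C26 scrambled-shRNA and 5.04 in Sham. Cd8b1, the beta chain of the CD8 heterodimer of cytotoxic T cells, was at 3.94, 3.97 and 5.08 in the same order. For both genes the tumour arrays lay close together and well under Sham, with log2 differences in C26 scrambled-shRNA of -1.73 for Cd4, a fold of 3.31, and of -1.11 for Cd8b1.

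Cd8a, the CD8 alpha chain that dendritic and natural killer cells can use as well, was at 3.13 in C26 FoxP1-shRNA, 3.07 in C26 scrambled-shRNA and 4.07 in Sham. Its fold of 2.01 in C26 scrambled-shRNA against Sham sits at the edge of the size used for counting, and its Sham value exceeds the olfactory level by so little that the bound is at least 1.16-fold lower. For Cd4 the same bound is at least 2.26-fold lower, and Cd8b1 needs none, since it was above the olfactory level on all 3 arrays. Over the 6 T cell genes, 4 were at 0.5 times Sham or less in C26 scrambled-shRNA, beside 4.33% of all genes, with a median log2 difference of -1.06. With values raised to the olfactory level, 3 of the 6 passed, beside 3.59% of all genes, and the median was -0.76.

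Ighm, the constant region of the immunoglobulin M heavy chain, had the widest range of the members. It was at 4.36 in C26 FoxP1-shRNA, 5.79 in C26 scrambled-shRNA and 9.05 in Sham, above the olfactory level each time. The log2 difference of C26 scrambled-shRNA from Sham was -3.27, a fold of 9.63, and 95% of all genes had differences between -1.30 and 1.14 in this comparison. Ighm is used by naive B cells as a surface receptor and by plasma cells as secreted antibody, which the array does not separate. Cd79a, a signalling chain of the B cell receptor, was at 2.71, 2.90 and 3.34 in C26 FoxP1-shRNA, C26 scrambled-shRNA and Sham. Ms4a1, the gene of CD20 on mature B cells, was at 3.12, 2.65 and 3.50 in that order. Neither exceeded the olfactory level on any array, so that, of the B cell members, only Ighm was measured well clear of silent genes, and the label of B lymphocyte rests on this 1 gene.

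The FoxP1-shRNA muscle was compared with the scrambled-shRNA muscle of tumour-bearing mice to see what FoxP1 knockdown does under a tumour. Of the members, 2 of 9, Cd3e and Ighm, were at or below 0.5 times their C26 scrambled-shRNA value, where 1.06% of all genes were, and 0 were at or above 2 times, where 1.44% were. With values raised to the olfactory level the count was again 2, beside 0.865% of all genes, and the members' median was 0. Cd3e had a log2 difference of -2.43, a fold of 5.37, or at least 3.54-fold lower at the olfactory level, and Ighm one of -1.42, a fold of 2.68. The median of the 9 was -0.16 and that of all genes -0.034, and for 95% of all genes the difference lay between -0.75 and 0.80. The other 7 members differed by at most 0.48 on the log2 scale. Among these, Cd8b1 at -0.032 took the opposite sign under each of the 4 other scalings tried, and neither it nor Cd8a at 0.07 has a readable direction. The highest positive differences, 0.48 for Ms4a1 and 0.23 for Cd3g, were between values under the olfactory level.

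Against Sham, the C26 FoxP1-shRNA muscle had 5 of 9 members at or below 0.5 times, where 2.17% of all genes were, and 0 at or above 2 times, where 1.61% were. With values raised to the olfactory level, 5 members again passed, beside 1.54% of all genes. Here the 5 were Cd3e, Cd3g, Cd4, Cd8b1 and Ighm. Ighm had a log2 difference of -4.69, a fold of 25.9, Cd3e one of -2.83, a fold of 7.11 or at least 4.68-fold lower at the olfactory level, and Cd3g one of -2.50, or at least 2.26-fold lower. The median of the members was -1.14, and that of all genes was -0.0041. Since the C26 scrambled-shRNA and Sham arrays each enter more than 1 comparison, the differences of a gene are not independent of each other and are only set side by side.

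**Figure D2:**
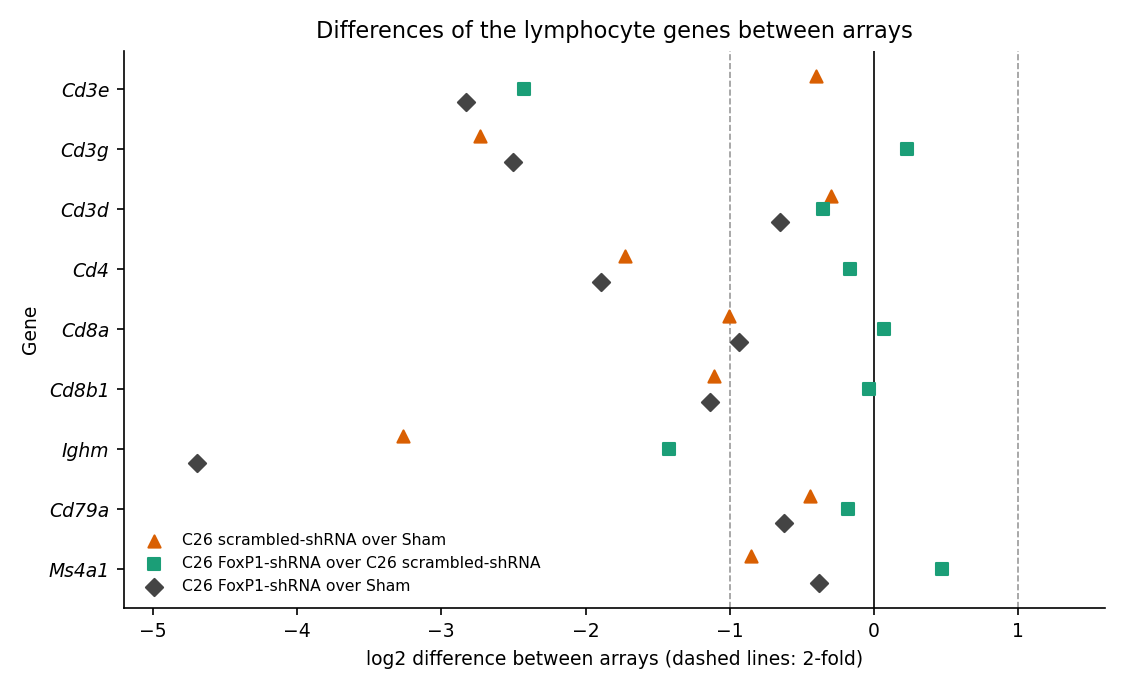
Log2 difference of each lymphocyte gene (y axis) between pairs of arrays; triangles are C26 scrambled-shRNA over Sham, squares C26 FoxP1-shRNA over C26 scrambled-shRNA and diamonds C26 FoxP1-shRNA over Sham, and dashed lines mark 2-fold. Most squares lie near 0, with Cd3e at -2.43 and Ighm at -1.42 as the 2 past the dashed line.

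Constant regions of the T cell receptor were measured as well. Counts in this and the later lists are to be read beside the shares of all genes at or below 0.5 times. These were 4.33% in C26 scrambled-shRNA against Sham, 2.17% in C26 FoxP1-shRNA against Sham and 1.06% between the tumour arrays. With values raised to the olfactory level they were 3.59%, 1.54% and 0.865%. At or above 2 times they were 3.34%, 1.61% and 1.44%, with values not raised. Trac, the alpha chain constant region, was at 3.08 in C26 FoxP1-shRNA, 3.58 in C26 scrambled-shRNA and 6.84 in Sham. Trbc1, a beta chain constant region, was at 5.43, 6.0 and 8.46 on the same arrays. Both had their highest value by far in Sham, and C26 scrambled-shRNA was at least 7.88-fold lower than Sham for Trac, whose tumour values lay under the olfactory level, and 5.51-fold lower for Trbc1. Trbc2, the other beta constant gene, was at 6.81, 6.95 and 7.20, nearly level over the arrays; the beta constant genes are close copies, so their split by probes is uncertain. Cd247, the zeta chain, was at 3.30, 3.38 and 3.28, under the olfactory level throughout. Of the 4 genes of this group that were measured, 2 were at 0.5 times Sham or less on each tumour array and 0 differed by 2-fold between the tumour arrays.

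Genes for T cell signalling and surface proteins were mostly within 2-fold of Sham. Of 18 measured, 2 were at 0.5 times Sham or less in C26 scrambled-shRNA and 0 were at or above 2 times, with a median log2 difference of -0.24. Cd27, a costimulatory receptor, was at 2.18 in C26 FoxP1-shRNA, 2.27 in C26 scrambled-shRNA and 4.28 in Sham, and Cd2, an adhesion receptor whose values were seen before it was named, was the other, at 2.34, 2.74 and 4.0 on the same arrays. Both were under the olfactory level on the tumour arrays, and with values raised to that level 0 of the 18 were at 0.5 times Sham or less on either. Prkcq, a kinase of T cell receptor signalling that muscle fibres express too, was at 10.36, 10.12 and 9.59, high on every array and highest in C26 FoxP1-shRNA. Between the tumour arrays, 0 of the 18 differed by 2-fold.

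Among 16 genes of T cell subsets and homing, 3 were at 0.5 times Sham or less in C26 scrambled-shRNA and 0 at or above 2 times, with a median of -0.41. Il2rb, a chain of the interleukin-2 receptor, was at 3.07 in C26 FoxP1-shRNA, 3.18 in C26 scrambled-shRNA and 4.66 in Sham, at least 1.74-fold lower on each tumour array. Satb1, a chromatin organiser needed for thymocyte development, differed by -1.26 in C26 scrambled-shRNA and by -0.51 in C26 FoxP1-shRNA against Sham. Il7r, the interleukin-7 receptor, chosen after its value was seen, was the last of the 3, at least 1.06-fold lower than Sham, so that Satb1 alone passed 2-fold in C26 scrambled-shRNA, and 0 of 16 in C26 FoxP1-shRNA, with values raised to the olfactory level. Ccr7, the receptor that leads lymphocytes to lymph nodes, was level between C26 scrambled-shRNA and Sham, at 0.02, and lower in C26 FoxP1-shRNA than in C26 scrambled-shRNA by a difference of -0.71.

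Cytotoxic and natural killer cell genes followed. Of 13 measured, 6 were at 0.5 times Sham or less in C26 FoxP1-shRNA and 5 in C26 scrambled-shRNA, with medians of -0.75 and -0.86, and 0 reached 2 times in either. Most of these genes were dim, and with values raised to the olfactory level the counts were 1 in C26 FoxP1-shRNA, Nkg7, and 2 in C26 scrambled-shRNA, Nkg7 and Prf1, which encodes perforin. Nkg7, a granule protein of cytotoxic lymphocytes, was at 3.57 in C26 FoxP1-shRNA, 3.88 in C26 scrambled-shRNA and 6.51 in Sham, a fold of 6.21 between C26 scrambled-shRNA and Sham. Ncr1, a receptor of natural killer cells, was at 2.78 in C26 FoxP1-shRNA, 2.52 in C26 scrambled-shRNA and 4.09 in Sham, which bounds the difference only at 1.18-fold or more. Between the tumour arrays 0 of 13 differed by 2-fold, and Prf1 had a log2 difference of 0.54.

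In the B lineage, most genes beyond Ighm were dim. Of 18 B cell genes, 5 were above the olfactory level in C26 FoxP1-shRNA, 4 in C26 scrambled-shRNA and 7 in Sham. In C26 scrambled-shRNA, 1 of the 18 was at 0.5 times Sham or less, a share near the 4.33% of all genes. None of the 18 was at or above 2 times, beside 3.34% of all genes, and the median was -0.32. That gene was Cd72, a coreceptor of B cells, at 2.69 in C26 FoxP1-shRNA, 3.0 in C26 scrambled-shRNA and 4.47 in Sham, or at least 1.53-fold lower on each tumour array, and with values raised to the olfactory level 0 of the 18 passed. Ebf1, a B cell transcription factor that stromal and fat cells also express, was at 7.42, 7.0 and 7.45, with its lowest value in C26 scrambled-shRNA.

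Immunoglobulin constant genes did not share 1 pattern. Igkc, the kappa light chain constant region, was at 4.26 in C26 FoxP1-shRNA, 7.01 in C26 scrambled-shRNA and 7.87 in Sham. In C26 scrambled-shRNA it was 1.81-fold lower than Sham, a log2 difference of -0.85. That is larger than the difference of Cd3e and near the median of -0.92 of the pan-leucocyte genes described below. Like Cd3e it was far lower in C26 FoxP1-shRNA, with a log2 difference of -2.75 from C26 scrambled-shRNA, a fold of 6.74. Ighg1, the constant region of the immunoglobulin G1 heavy chain, was highest in C26 scrambled-shRNA, at 4.87, against 3.76 in both C26 FoxP1-shRNA and Sham.

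Of the 13 plasma cell and immunoglobulin constant genes, 1 was at or below 0.5 times and 1 at 2 times Sham or more in C26 scrambled-shRNA, and the median was -0.07. Prdm1, a regulator of plasma cells that other cells use as well, was the lower one, at 4.69 in C26 FoxP1-shRNA, 4.77 in C26 scrambled-shRNA and 5.80 in Sham. Irf4, a factor of plasma cells and activated lymphocytes, took the same shape as Ighg1, at 5.0 in C26 scrambled-shRNA and 4.0 in both other groups. Between the tumour arrays 2 of the 13 were at or below 0.5 times, Igkc and Ighg1, and 0 were at or above 2 times.

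**Figure D3:**
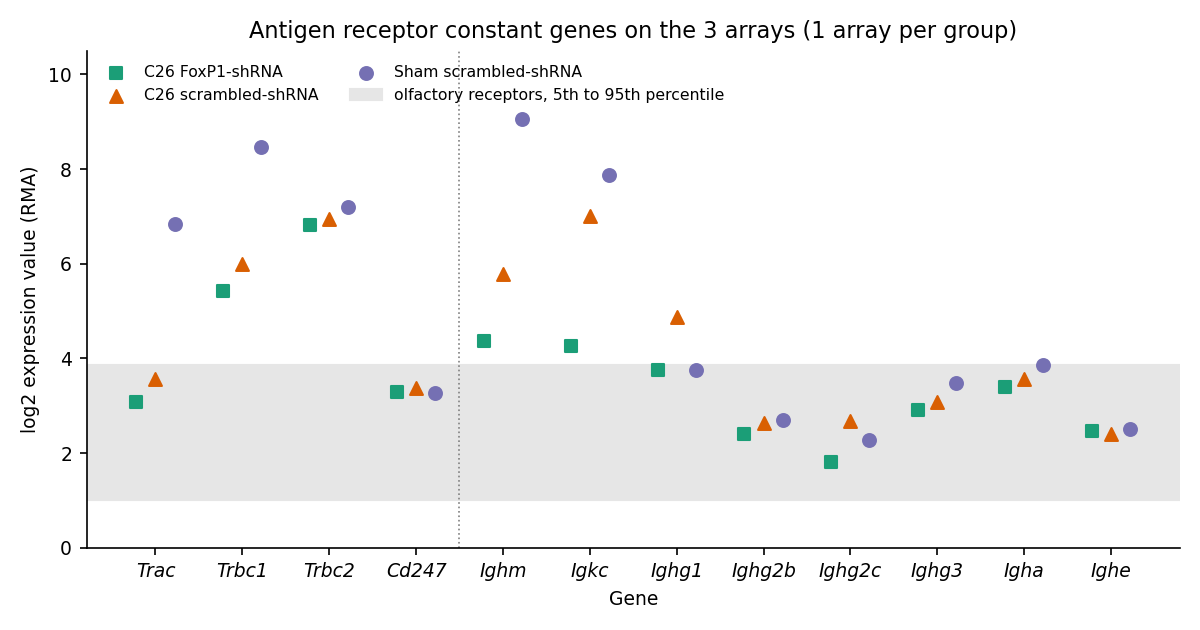
Log2 expression value of genes for antigen receptor constant regions and the zeta chain (x axis; T cell receptor left of the dotted line, immunoglobulin right of it) on the 3 arrays, 1 point per array with no replicate; the grey band runs between the lowest 5th and the highest 95th percentile of the olfactory receptors. Trac, Trbc1 and Ighm are far highest in Sham, Igkc is far lowest in C26 FoxP1-shRNA at 4.26, and Ighg1 stands high in C26 scrambled-shRNA alone at 4.87.

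The variable segments, which are joined anew in every lymphocyte so that each is used by few cells, differed by 2-fold in few cases. Of 185 immunoglobulin variable segments, 30 were above the olfactory level in C26 scrambled-shRNA and 26 in Sham, and 1 was at or below 0.5 times and 1 at 2 times Sham or more, with a median of 0.06. Of 70 T cell receptor variable segments, 15 in C26 scrambled-shRNA and 14 in Sham were above that level, and again 1 was at or below 0.5 times and 1 at or above 2 times, with a median of -0.07. With values raised to that level, 0 segments of either kind passed 2-fold.

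The lower values were not confined to lymphocyte genes. Of 15 pan-leucocyte genes, which most blood-derived cells express, 8 were at 0.5 times Sham or less in C26 FoxP1-shRNA and 7 in C26 scrambled-shRNA, with medians of -1.0 and -0.92, beside the members' medians of -1.14 and -1.0. With values raised to the olfactory level, 6 of the 15 passed on each tumour array. Ptprc, the CD45 phosphatase of all leucocytes, was at 4.68 in C26 FoxP1-shRNA, 4.67 in C26 scrambled-shRNA and 6.65 in Sham. Between the tumour arrays 0 of the 15 differed by 2-fold, and the median was -0.14. Of all genes, 1.06% were lower and 1.44% higher by that size, so a count of 0 in a short list is near these shares.

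Set beside these genes, Ighm stood apart in every comparison and Cd3e in those with C26 FoxP1-shRNA. Cd3g stood apart against Sham by its value but not by its bound. Cd3d, Cd79a and Ms4a1 were under the olfactory level on all 3 arrays, so their place in the ranges below is not readable. In C26 scrambled-shRNA against Sham the 15 pan-leucocyte differences ran between -1.98 and 0.12, and all 9 members but Ighm, at -3.27, and Cd3g, at -2.73, lay in that range. The bound of Cd3g at the olfactory level, at least 2.26-fold lower, lies in it. That bound is the smallest difference, so it does not place Cd3g inside or below the range. Outside the members, Trac at -3.26, Nkg7 at -2.63, Trbc1 at -2.46 and Cd27 at -2.02 lay below that range. Cd27 was bounded only at 1.34-fold or more, and most other lymphocyte genes measured did not lie below the range. Against Sham, C26 FoxP1-shRNA had pan-leucocyte differences between -1.97 and -0.25. Ighm at -4.69, Cd3e at -2.83 and Cd3g at -2.50 lay below these, and the other members lay inside. The bound of Cd3g again lies inside and does not place it. In C26 FoxP1-shRNA against C26 scrambled-shRNA the pan-leucocyte differences ran between -0.60 and 0.54, with Cd3e at -2.43, or at least 3.54-fold lower, and Ighm at -1.42 below them and the other 7 members inside.

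Genes that attract or meet lymphocytes were among those far lower in both tumour arrays. Cxcl9, an interferon-induced chemokine for activated T cells, was at 2.54 in C26 FoxP1-shRNA, 3.36 in C26 scrambled-shRNA and 7.55 in Sham. Ccl5, a chemokine that T and natural killer cells both make and follow, was at 3.78, 4.33 and 8.26 on the same arrays. Cxcl13, which draws B cells, ran the other way, at 8.38 in C26 FoxP1-shRNA, 9.82 in C26 scrambled-shRNA and 8.25 in Sham. Of 12 chemokine and receptor genes of this kind, 5 were at or below 0.5 times and 1 was at 2 times Sham or more in C26 scrambled-shRNA. Of 10 MHC class II genes, which present antigen to CD4 cells, 7 were at 0.5 times Sham or less on each tumour array, with values raised to the olfactory level or not. Cd74, the invariant chain of that pathway, was at 6.64, 6.82 and 10.34 in C26 FoxP1-shRNA, C26 scrambled-shRNA and Sham.

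Other cell types were measured beside the lymphocytes, and their part in the lymphocyte values was not tested. Of 13 macrophage genes, 5 were at or below 0.5 times and 3 at 2 times Sham or more in C26 scrambled-shRNA, with Adgre1, a surface receptor of tissue macrophages, at -1.41 and Cd68, a lysosomal protein, at 1.77. Neutrophil genes went the other way, 6 of 12 at 2 times Sham or more on each tumour array and 0 at or below 0.5 times. Among the neutrophil genes at 2 times or more, S100a8, a calcium-binding protein, was at 6.14 in C26 FoxP1-shRNA, 6.55 in C26 scrambled-shRNA and 3.01 in Sham. Ly6g, another neutrophil gene, was at 2.77, 2.49 and 2.63 in the same order, under the olfactory level on all 3 arrays. Of 8 dendritic cell genes 1 was at 0.5 times Sham or less in C26 scrambled-shRNA, or 0 with values raised to the olfactory level, and of 10 endothelial genes 1 was at or below 0.5 times and 2 at or above 2 times. The 11 skeletal muscle genes had a median difference of -0.35, with 1 at or below 0.5 times.

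Blood and lymph node tissue can bring lymphocyte RNA into a muscle sample, so their genes were read as well. Glycam1, a ligand made by the high endothelial venules of lymph nodes, was at 3.14, 3.21 and 3.26 in C26 FoxP1-shRNA, C26 scrambled-shRNA and Sham, under the olfactory level throughout, and Madcam1, another vessel ligand for homing lymphocytes, was at 4.24, 4.51 and 4.16. Of the 5 lymph node genes measured, 1 was at 2 times Sham or more in C26 scrambled-shRNA and 0 at or below 0.5 times. It was Cxcl13, whose values are given above, and it was also at or below 0.5 times in C26 FoxP1-shRNA against C26 scrambled-shRNA. Of the 3 erythroid genes, Hbb-bs, a beta-globin chain, was under the olfactory level on every array, at 2.81, 1.58 and 2.40. Alas2, the haem synthesis enzyme of red cells, was at 7.98, 6.51 and 5.98 on the same arrays, highest in C26 FoxP1-shRNA and lowest in Sham. Slc4a1 had the same order, at 5.36, 4.78 and 3.39, with only its Sham value under the olfactory level. Against Sham, 2 of the 3 were at or above 2 times in C26 FoxP1-shRNA and 1 in C26 scrambled-shRNA. With values raised to the olfactory level these counts were 2 and 0.

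**Figure D4:**
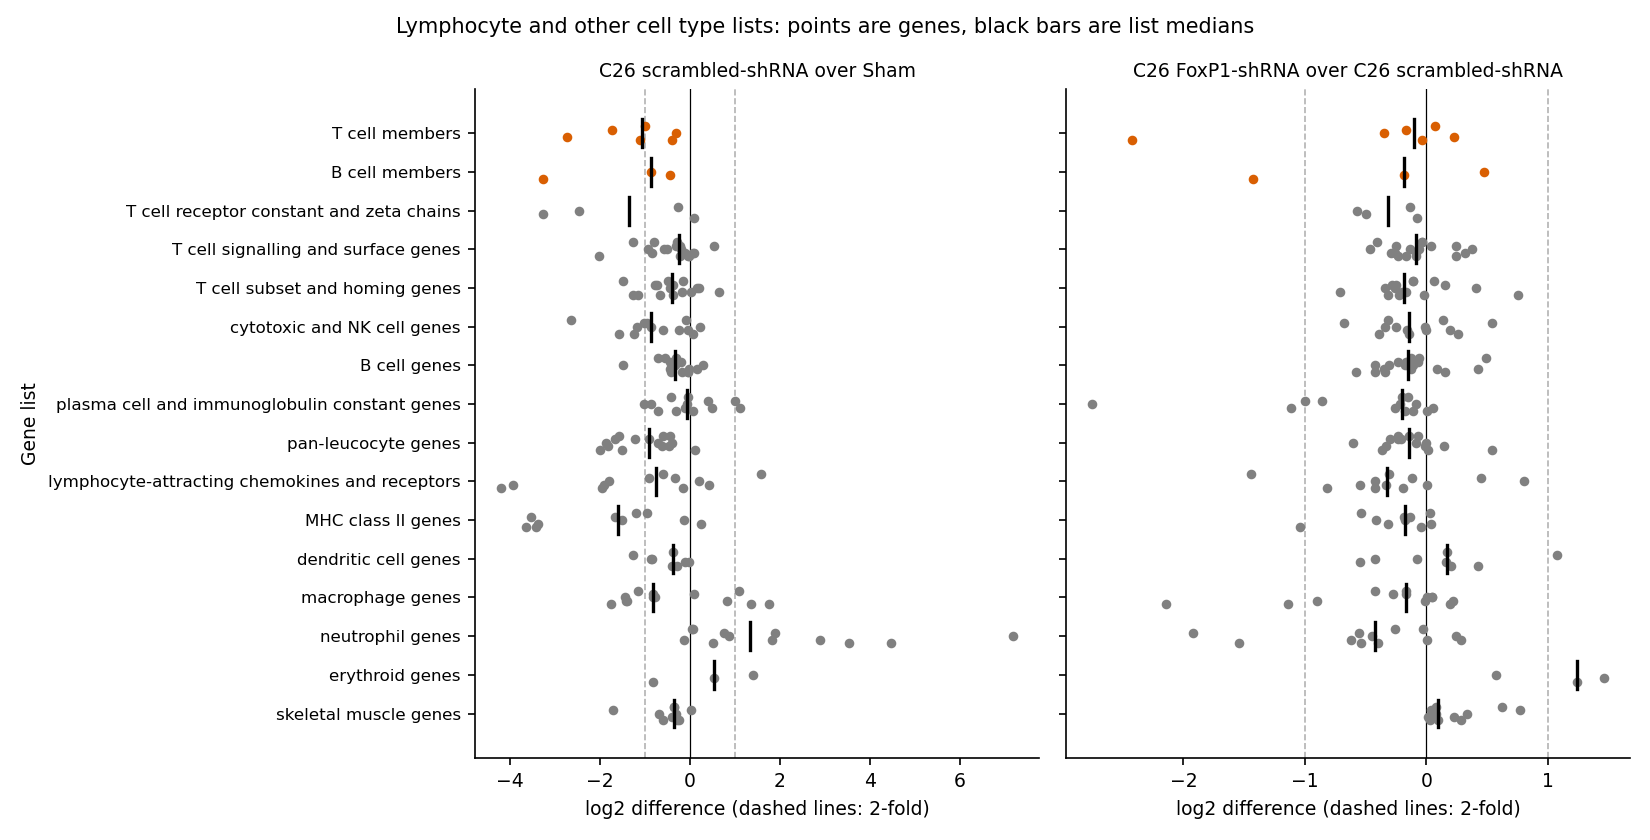
Log2 difference of each gene (grey points; the 9 lymphocyte genes in orange) in gene lists of cell types and pathways (y axis), with a black bar at each list's median and dashed lines at 2-fold; C26 scrambled-shRNA over Sham is on the left and C26 FoxP1-shRNA over C26 scrambled-shRNA on the right. On the left the T cell members, pan-leucocyte and MHC class II genes have medians of -1.06, -0.92 and -1.58 while the neutrophil median is 1.34, and on the right most list medians lie near 0.

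Among 10251 genes at or above the array median on all 3 arrays, 8 had both differences from Sham within 0.1, as a Euclidean distance on the log2 scale, of the members' medians of -1.14 in C26 FoxP1-shRNA and -1.0 in C26 scrambled-shRNA. The 5 nearest were Prdm1 at a distance of 0.033, Il10ra, an interleukin-10 receptor chain of leucocytes, at 0.035, Gimap4, a GTPase of lymphocytes, at 0.047, Myod1, a myogenic transcription factor, at 0.057, and Tcim at 0.073. Since the likeness is taken over 3 arrays, a muscle gene such as Myod1 can stand as near as a lymphocyte gene.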

How the data were processed

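The deposited log2 expression values were made by the authors with RMA (affy 1.36.1, R 2.15.1, in the submitters' processing notes), with Bioconductor 2.12 and the Brainarray Entrez mapping 17.0.0 from the study's methods. The sources used here do not give the genome build or which arrays were normalized together. Of the genes, 23185 had a symbol and 2021 are unnamed here.

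Python 3.11.15 with numpy 2.4.6 and pandas 2.3.3 was used to take differences between arrays, without a filter on dim genes, and a fixed 2-fold size was used for counts. "At least" bounds raise values under 3.86, the highest 95th percentile of olfactory receptors, to it. The members and the 18 other lists were chosen with earlier results of these data known. Named genes are the 9 members, Foxp1, up to 4 genes per list and comparison, and the 5 nearest in pattern. Those of a list had the largest difference among its genes at or above the array median on 1 array or more. Acta1, Cd2, Cd247, Il7r, Hbb-bs, Glycam1 and Ly6g are named beside them as markers or to complete a count. Alternatives were 4 scalings (array median, quantile, cyclic loess with limma 3.58.1 under R 4.3.3, and the 9 reference genes measured), leaving out dim genes, sizes of 1.5-fold and 3-fold, and the mean. Figures were drawn with matplotlib 3.10.9. Counting was checked on simulated data. The FoxP1 over-expression arrays and FoxO1-shRNA muscles were not analysed here, nor were list genes that no symbol matched.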

Additional observations from a re-analysis of the deposited data

How the results depend on the processing

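Array-median, quantile and cyclic loess scaling kept each of the 27 differences of the lymphocyte genes within 0.1 on the log2 scale. The sign of Cd8b1 between the tumour arrays differed under each of them, and array-median scaling took Cd8a, at -0.99 in C26 scrambled-shRNA against Sham, off the 2-fold count. Centring on the reference genes lowered the all-gene median by -0.28 in C26 scrambled-shRNA against Sham and by -0.12 in C26 FoxP1-shRNA against Sham, and raised it by 0.16 in C26 FoxP1-shRNA against C26 scrambled-shRNA. Under it 2020 genes were at or below 0.5 times and 480 at or above 2 times in the first of these comparisons (1092 and 843 as deposited), 721 and 290 in the second (548 and 405), and 165 and 564 in the last (267 and 362). Members at or below 0.5 times were then 6, 6 and 2, and 0 were at or above 2 times. For C26 scrambled-shRNA against Sham, the members' median was -1.29 with reference genes, -0.41 with values raised to the olfactory level (an alternative chosen after seeing the data), -1.42 with dim genes left out and -1.32 as a mean, and 3 members passed 3-fold. Between the tumour arrays, FoxP1-shRNA over scrambled-shRNA, the same 4 settings gave -0.0064, 0, -1.93 and -0.42, and 1 member passed 3-fold. For C26 FoxP1-shRNA against Sham, the median was -1.26 with reference genes, -2.20 with dim genes left out and -1.74 as a mean, and 8 members passed 1.5-fold. Among these 8 are Cd3d and Cd79a, which were under the olfactory level on all 3 arrays, and Cd8a, bounded only at 1.16-fold or more. The shares of all genes past 1.5-fold and 3-fold were not counted, so these member counts have no background beside them. Leaving out dim genes kept members at or above the array median on 1 or more of the 2 arrays compared. Against Sham, Cd3g, Cd4, Cd8a and Cd8b1 passed only through Sham, where they were high. In C26 FoxP1-shRNA against Sham, Cd3e did so too. Between the tumour arrays only Cd3e and Ighm were kept, and Cd3e passed only through C26 scrambled-shRNA, where it was high. The medians with dim genes left out are therefore no separate result in any of the comparisons. Centring on reference genes shifted every gene by 1 amount per comparison. Raising values set a difference between 2 values under the olfactory level to 0, and a mean gives large differences more weight. No paired analysis was possible because each group is 1 array. Signal over background limits Cd3d, Cd79a and Ms4a1 on all 3 arrays, and the absence of replicates limits every value.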
